A study of Homo sapiens with 6 samples.

Results

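Mitosis and G2/M genes were followed in U251 glioma cells exposed to sevoflurane (Sev), an inhaled anesthetic, and in untreated U251 cells. The members were a named list of 42 genes whose products drive the G2 to M transition, build the spindle, guard chromosome segregation and complete cytokinesis. They were chosen by name, with earlier results of these data known. All 42 symbols matched 1 identifier each in the count table of 61496 features, and all 42 passed the filter on low counts that left 27514 features for testing. U251 is an established human glioma line, and every library came from this single line. The study sequenced total RNA from 3 libraries of untreated control cells and from 3 libraries of cells kept in Sev gas for 2 h. The deposited protocol lists doses of 1.7%, 3.4% and also 5.1% without saying which library received which, and the description of the sequenced cells gives 5.1%. Nothing in the labels says that the 3 libraries of a group came from separate cultures, so the p-values measure the spread between these libraries, which may be technical.

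Cells enter mitosis when the kinase CDK1, bound to cyclin B, is freed from inhibitory phosphorylation. WEE1 and PKMYT1 place that phosphate, and the CDC25 phosphatases remove it. After the spindle checkpoint is satisfied, CDC20 activates the anaphase-promoting complex (APC/C), an E3 ubiquitin ligase that marks cyclin B and securin for destruction. Most of these genes are transcribed late in the cell cycle through B-MYB, FOXM1 and the MuvB core, which act at promoters that often carry CCAAT boxes and a cell cycle genes homology region (CHR). Their RNA is therefore scarce in resting cells and plentiful in dividing tumor cells, including glioma cells.

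The libraries held between 38624292 and 46318311 counts. Markers of glial and glioma cells were present at 1 CPM (a count scaled to the size of its library) or more for 8 of 8 genes, with a summed level of 7889 to 8791 CPM in the control libraries and 8949 to 9438 CPM in the Sev libraries. A single marker made up most of the sum, with a control mean of 5485 CPM. At an adjusted p under 0.05 in edgeR's test, 2 of the 8 were higher and 2 were lower, near the 22.1% and 21.5% of all tested features. Markers of other cell types summed to 8.30 to 11.9 CPM in control and 11.7 to 13 CPM in Sev. Of these 8 markers, 3 were at 1 CPM or more in control and 4 in Sev. PTPRC, EPCAM and MOG were too low to be tested. Of the 5 tested, 1 was higher at an adjusted p under 0.05 in edgeR's test, beside 22.1% of all tested features. CPM values here were normalized with the trimmed mean of M values (TMM), whose factors were between 1.03 and 1.08 in control and between 0.918 and 0.988 in Sev.

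Mitosis and G2/M genes were lower in Sev more often than they were higher. Of the 42 genes, 15 (35.7%) were lower at an adjusted p under 0.05 in edgeR's quasi-likelihood test, where 21.5% of all tested features were called lower. Only WEE1 and BIRC5 (4.76%) were higher, where 22.1% of all tested features were called higher. Among protein-coding features with a mean of at least 10 CPM, the backgrounds were 20.6% lower and 26.5% higher. The remaining 25 genes were not called in either direction. The count of lower genes was between 15 and 20 in the 17 alternative settings. The fold changes were negative in 34 members and positive in 8, with a median log2 fold change of -0.19, against -0.0056 over all tested features. By construction of the call, the 15 lower genes lay lower: they had a median of -0.79 and a range from -1.66 to -0.31, and the 25 genes that were not called had a median of -0.070, with AURKA at -0.84 among them. Bulk RNA cannot tell fewer cells in G2 and mitosis from less of these transcripts per cell.

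With the threshold the study used, an absolute log2 fold change over 1 with an unadjusted p under 0.05, 4 members were lower (HMMR, TOP2A, CENPE and CCNF) and 1 was higher (BIRC5). The count of lower members was 2 without control 3 and 2 without Sev 2, and BIRC5 was under the threshold in the 3 FPKM settings (log2 fold change 0.86 to 0.99). The same threshold held for 12% of all tested features in the lower and 11.4% in the higher direction, and for 4.12% and 3.39% of protein-coding features with a mean of at least 10 CPM. The groups did not overlap for 16 members that were lower and 2 that were higher, against 28.2% and 28.3% of all tested features and 26.0% and 33.3% of the abundant protein-coding ones. The 16 were the 15 called genes and CCNB1.

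**Figure D1:**
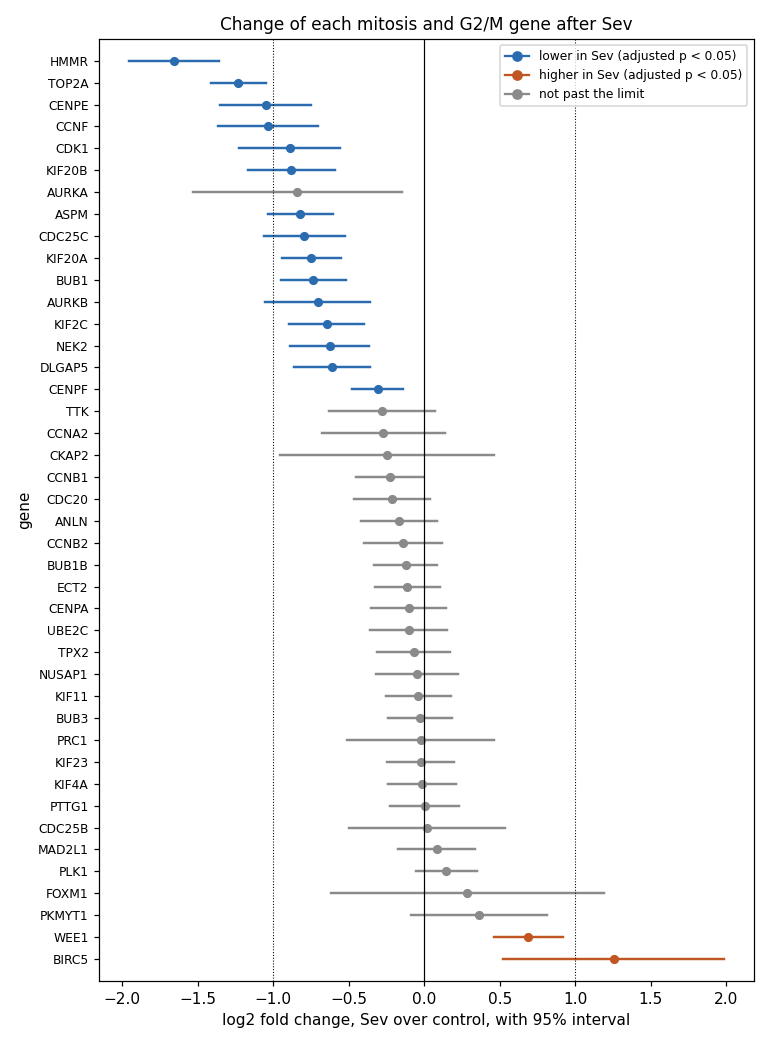
The log2 fold change of each of the 42 genes (Sev over control, x axis) with its 95% interval from edgeR's quasi-likelihood fit, sorted by size, in blue where lower, orange where higher and grey where not past an adjusted p of 0.05. HMMR sits lowest at -1.66 and BIRC5 highest at 1.25, and a run of grey genes from TTK to PKMYT1 lies between them.

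The levels were also described library by library. The summed level of the 42 genes was 4892, 5710 and 5575 CPM in control libraries 1 to 3 and 4426, 4353 and 4590 CPM in Sev libraries 1 to 3. All 3 Sev libraries were below all 3 control libraries, and control 1 was the lowest of the controls. In control 1, 41 of 42 genes were below the control mean, compared with 7 in control 2 and 4 in control 3. The 15 lower genes were called in these same libraries, so their values are a description. Their median, as log2 CPM relative to the control mean, was -0.79, -0.97 and -0.70 in the Sev libraries and -0.11, 0.06 and 0.05 in the controls. The median of the 25 genes not called was -0.12, -0.13 and 0.03 in the Sev libraries and -0.16, 0.11 and 0.07 in the controls. For those 25 genes the libraries of the groups overlapped, and control 1 was lower than every Sev library. Without control 1, 17 members were lower and the median log2 fold change over the 42 genes was -0.29.

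**Figure D2:**
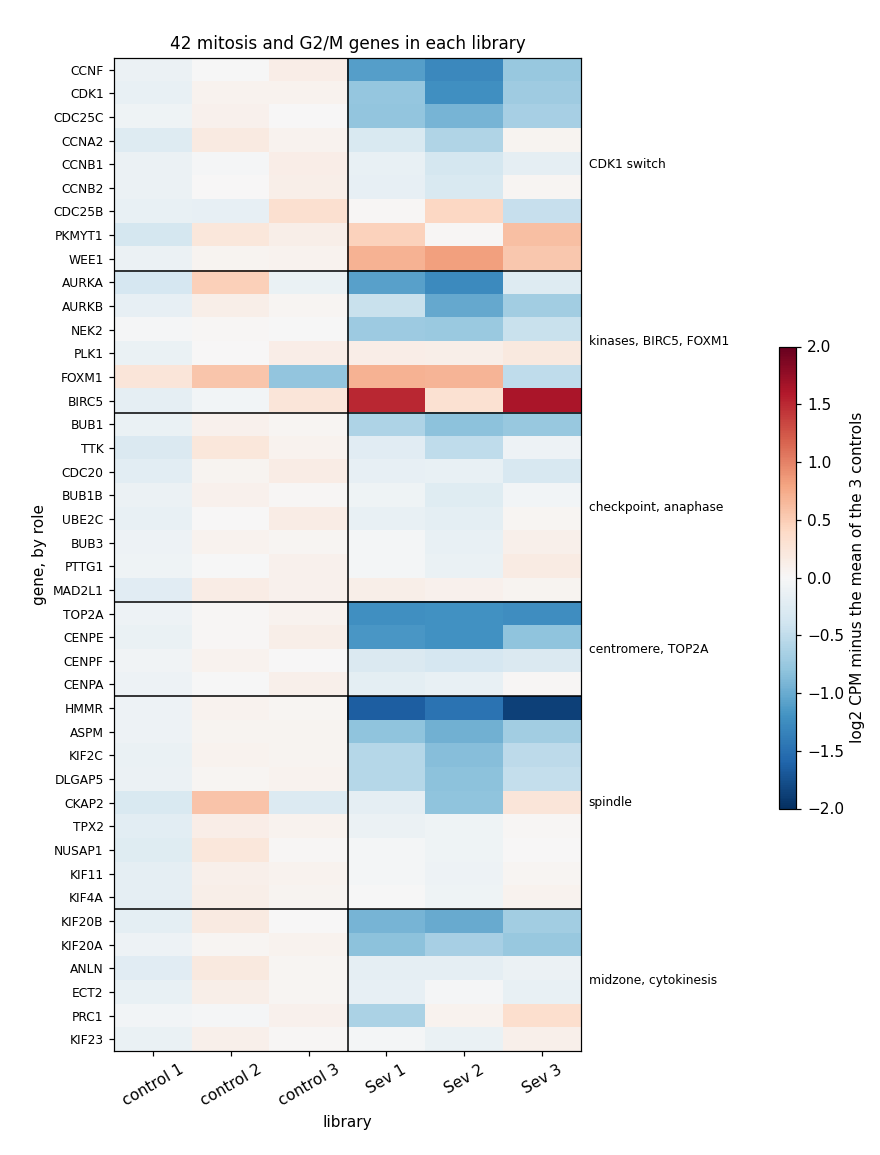
Log2 CPM of each gene (rows, by role) in each of the 6 libraries (columns), relative to the mean of the 3 control libraries, with blue below and red above. The 3 Sev columns are blue for the called genes of each role, whereas WEE1 and BIRC5 are red and many rows stay near 0.

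The replicates differed most for a few members. The pooled standard deviation of log2 CPM within groups had a median of 0.14 over the 42 genes and ran from 0.05 to 0.70. It was highest for FOXM1 (0.70), BIRC5 (0.54), CKAP2 (0.51) and AURKA (0.49), so changes of these genes were measured least precisely.

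Promoter sequence was examined because most members share a late cell cycle transcription program. RefSeq promoters (GRCh38.p14, 250 bases before to 50 bases after the start) were matched by symbol for 33 of the 42 genes, among them all 15 lower genes and 18 of those not called. AURKA, BUB3, TTK, BIRC5, UBE2C, TPX2, FOXM1, WEE1 and PKMYT1 had no entry in the promoter set used here. The CHR was searched as TTTGAA or TTCGAA and the CCAAT box as CCAAT, each on both strands. A CHR match was found in 24 of 33 members (72.7%), compared with 19.5% of 27305 genes and 16.4% of 35116 promoters. A CCAAT match was found in 28 of 33 members (84.8%), compared with 39.7% of genes and 34.6% of promoters. Both were found in 22 of 33 members (66.7%), compared with 7.85% of genes.

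Within the list, matches were found both in lower genes and in genes not called. A CHR match was present in 10 of the 15 lower genes and in 14 of the 18 genes not called. A CCAAT match was present in 13 of 15 and 15 of 18, and both motifs in 10 of 15 and 12 of 18. When a CHR match was required to begin between 60 and 10 bases before the start, a window chosen after the positions were seen, 3 of 15 lower genes (20%) and 10 of 18 genes not called (55.6%) had one, against 3.41% of all genes. This is a description of letters in a window and no test was run on it.

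The stretch from 200 bases before the start to the nearest annotated exon is printed for 3 lower genes and 2 genes that were not called, to show these motifs beside unlike responses. Each is read 5′ to 3′ on the strand of its gene, with CHR and CCAAT matches of either strand in capitals. TOP2A lies at chr17:40417951-40418096 on the minus strand, CENPF at chr1:214602995-214603194 on the plus strand, ASPM at chr1:197146695-197146869 on the minus strand, KIF11 at chr10:92592930-92593129 on the plus strand and CDC20 at chr1:43358781-43358954 on the plus strand, all on GRCh38.p14.
TOP2A: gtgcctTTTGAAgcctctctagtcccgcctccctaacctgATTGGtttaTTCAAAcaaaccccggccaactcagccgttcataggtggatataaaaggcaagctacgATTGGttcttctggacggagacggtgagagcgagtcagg
CENPF: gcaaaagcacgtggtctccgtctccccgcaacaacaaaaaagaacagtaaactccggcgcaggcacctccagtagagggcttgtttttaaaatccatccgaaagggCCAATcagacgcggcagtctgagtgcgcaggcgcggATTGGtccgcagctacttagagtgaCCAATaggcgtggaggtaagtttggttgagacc
ASPM: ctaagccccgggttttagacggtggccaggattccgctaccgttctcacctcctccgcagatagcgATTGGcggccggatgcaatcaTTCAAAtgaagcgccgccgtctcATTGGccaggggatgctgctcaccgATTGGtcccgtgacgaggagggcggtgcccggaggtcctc
KIF11: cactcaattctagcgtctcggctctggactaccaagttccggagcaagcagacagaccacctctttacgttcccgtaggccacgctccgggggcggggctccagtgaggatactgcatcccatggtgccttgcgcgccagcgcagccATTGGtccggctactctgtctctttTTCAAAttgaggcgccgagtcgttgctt
CDC20: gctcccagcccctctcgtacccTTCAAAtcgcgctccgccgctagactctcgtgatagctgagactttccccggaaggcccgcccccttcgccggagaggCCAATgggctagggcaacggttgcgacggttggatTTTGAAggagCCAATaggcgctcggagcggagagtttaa
The first 3 genes were lower in Sev and the last 2 were not called. KIF11 carried a CHR match 28 bases and a CCAAT match 53 bases before its start, and its log2 fold change was -0.039. CENPF had 3 CCAAT matches and no CHR match in the printed stretch.

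**Figure D3:**
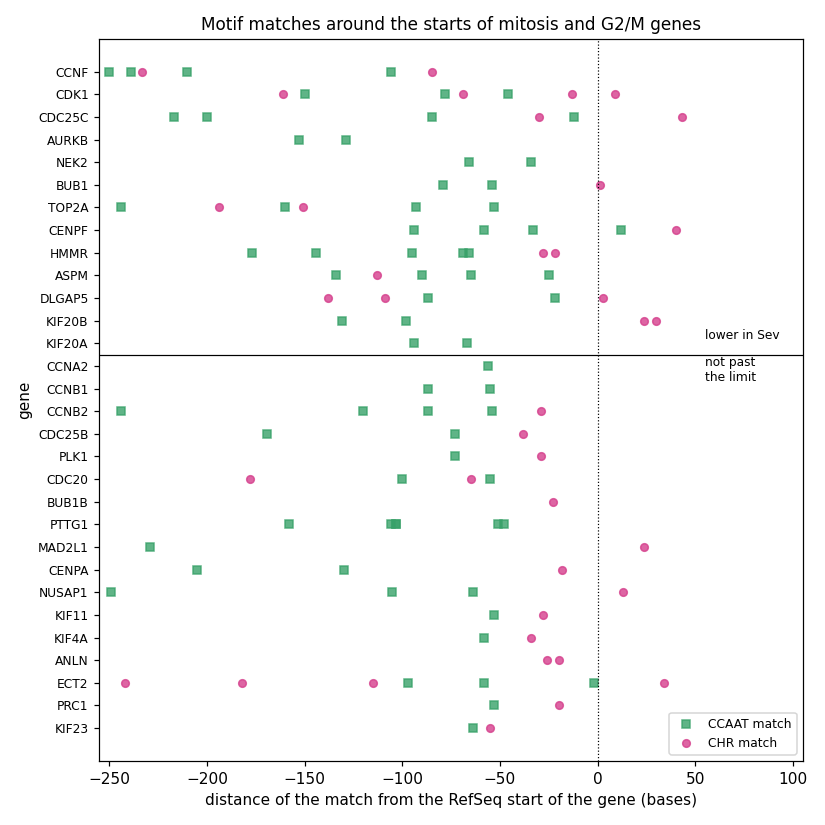
Positions of CCAAT (squares) and CHR (circles) matches in bases from the RefSeq start (x axis) for the members with a match, lower genes above the line and genes not called below it. CCAAT matches crowd between 110 bases before the start and the start itself in both sets. The CHR matches of the lower genes are spread over the whole window, and no test compares the sets.

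Among the genes of the CDK1 switch, calls were made in both directions. Of 9 genes, 3 (33.3%) were lower (CDK1, CCNF and CDC25C), 1 (11.1%) was higher (WEE1) and 5 were not called, with a median log2 fold change of -0.23. Each of the 6 roles held between 4 and 9 genes, so its share is given only as a count beside the 21.5% lower and 22.1% higher of all tested features, and nothing is read from it about the role. CDK1 (ENSG00000170312, chr10:60778331-60794852, plus strand), the kinase that triggers mitosis, was at 79.6, 93.5 and 93.5 CPM in control and 51.6, 37.8 and 54.2 CPM in Sev. Every Sev library was below every control library. The mean fell from 88.9 ± 8.0 to 47.9 ± 8.85 CPM (SD, n = 3 each), 1.86-fold lower (log2 fold change -0.89, 95% interval -1.23 to -0.56, adjusted p = 0.00228 in edgeR's test).

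WEE1 (ENSG00000166483, chr11:9573681-9593457, plus strand), the kinase that holds CDK1 inactive, moved the other way. It was at 258, 292 and 295 CPM in control and 455, 497 and 409 CPM in Sev, and the groups did not overlap. The mean rose from 282 ± 20.3 to 454 ± 44.2 CPM (SD, n = 3 each), 1.61-fold higher (log2 fold change 0.69, 95% interval 0.46 to 0.92, adjusted p = 0.00136). PKMYT1, the membrane-bound kinase that phosphorylates CDK1 beside WEE1, was at 17.0 ± 3.37 CPM in control and 21.9 ± 4.27 CPM in Sev and was not called (adjusted p = 0.166). Its locus overlaps PAQR4 on the other strand, which rose by 0.95 on the log2 scale.

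CDC25C, a phosphatase that activates CDK1, was at 20.5, 22.9 and 21.8 CPM in control and 12.5, 11.3 and 13.7 CPM in Sev. It was 1.73-fold lower (log2 fold change -0.79, SE 0.12, adjusted p = 0.00145). The gene overlaps FAM53C on the other strand, which was at 54.3 CPM in control and 62.2 CPM in Sev and was not called. CDC25B, a phosphatase that starts the activation of CDK1 at the centrosome, spread widely, from 98.3 to 138 CPM in control and from 80.3 to 147 CPM in Sev. The interval of its log2 fold change ran from -0.50 to 0.53, so changes up to that size either way were not excluded.

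Of the cyclins, only CCNF was called. CCNF, the F-box protein cyclin F, was at 84.4, 91.6 and 100.4 CPM in control and 42.9, 37.5 and 54.5 CPM in Sev, 2.05-fold lower (log2 fold change -1.03, 95% interval -1.37 to -0.70, adjusted p = 0.00117). CCNB1, the main partner of CDK1, was at 123, 132 and 147 CPM in control and 121, 104 and 118 CPM in Sev. The groups of CCNB1 did not overlap, but the difference was not past the limit (log2 fold change -0.23, 95% interval -0.46 to -0.01, adjusted p = 0.0889). It was past the limit in 6 of the 17 alternatives, among them scaling by library size only (adjusted p = 0.0213). CCNB2 and CCNA2, cyclins B2 and A2, had log2 fold changes of -0.14 and -0.27 with overlapping groups (adjusted p = 0.345 and 0.247). CCNA2 overlaps EXOSC9 on the other strand, which rose from 29.9 to 47.3 CPM (adjusted p = 0.00267), and the part of its reads in the CCNA2 counts was not tested.

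Ratios of counts within a library do not depend on the scaling between libraries. The pairs were chosen after the values were seen. WEE1 counts were 12.6, 12.7 and 13.5 times those of CDC25C in the control libraries and 36.3, 43.9 and 29.8 times in the Sev libraries, a difference of 1.48 on the log2 scale. CDK1 counts were 0.647, 0.707 and 0.634 times those of CCNB1 in control and 0.428, 0.362 and 0.459 times in Sev, a difference of -0.68. For each ratio the groups did not overlap. Since the pairs were picked for their unlike changes, the ratios are a description with no test.

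**Figure D4:**
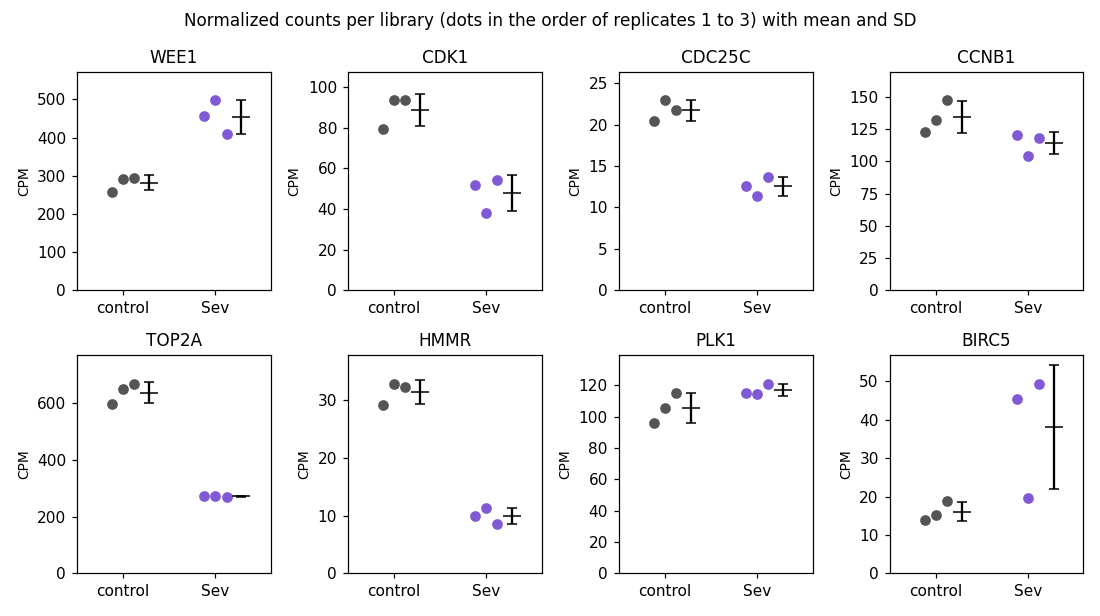
TMM-normalized CPM of 8 genes in each library (dots, replicates 1 to 3 from left to right) with the mean and SD of the 3 libraries of each group. WEE1 and BIRC5 are higher in Sev, CDK1, CDC25C, TOP2A and HMMR are lower, the Sev dots of CCNB1 lie just below the control dots, and PLK1 is not separated.

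Among the mitotic kinases, with the passenger protein BIRC5 and the transcription factor FOXM1, 2 of 6 genes (33.3%) were lower and 1 (16.7%) was higher. Of all tested features, 21.5% were lower and 22.1% higher, and nothing is read from so few genes. AURKB, the kinase of the chromosomal passenger complex, was at 52.7, 64.0 and 60.8 CPM in control and 43.2, 29 and 36.5 CPM in Sev, 1.63-fold lower (log2 fold change -0.71, SE 0.15, adjusted p = 0.00733). NEK2, a kinase of centrosome separation, fell from 27.4 ± 0.326 to 17.8 ± 2.14 CPM (SD, n = 3 each), 1.54-fold lower (adjusted p = 0.00342). PLK1, the polo-like kinase of mitotic entry and spindle assembly, was not called. It was at 96.2, 105.7 and 115 CPM in control and 115, 114 and 121 CPM in Sev, with a log2 fold change of 0.14 (95% interval -0.06 to 0.35, adjusted p = 0.215).

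AURKA, the centrosomal aurora kinase, had a log2 fold change of -0.84, similar in size to that of CDK1, but its replicates were far apart. It was at 38.8, 68.0 and 44.8 CPM in control and 23.1, 20.3 and 41.1 CPM in Sev, and Sev 3 lay within the control range. The 95% interval ran from -1.53 to -0.15 and the adjusted p was 0.0527. It was past the limit in 8 of the 17 alternatives. Leaving out a library gave adjusted p values from 0.01 (without Sev 3, log2 fold change -1.22) to 0.166 (without control 2, log2 fold change -0.57). Pseudogene copies of AURKA held 7.71% of the counts of the gene and its copies together.

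BIRC5 (ENSG00000089685, chr17:78214186-78225636, plus strand) encodes survivin, which is both a subunit of the chromosomal passenger complex and an inhibitor of apoptosis. It was at 13.9, 15.3 and 18.7 CPM in control and 45.4, 19.6 and 49.4 CPM in Sev. Sev 2 was near the controls and the other Sev libraries were well above them. The mean rose from 16.0 ± 2.47 to 38.2 ± 16.2 CPM (SD, n = 3 each), 2.38-fold higher (log2 fold change 1.25, 95% interval 0.52 to 1.98, adjusted p = 0.0144). The call was lost without control 1 (adjusted p = 0.059) and without Sev 1 (adjusted p = 0.0506), and also in all 3 settings with limma on FPKM (log2 fold change 0.86 to 0.99, adjusted p from 0.0564 to 0.117). AURKB and BIRC5, which act in the same complex, thus had fold changes of opposite sign.

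FOXM1, the transcription factor of G2/M genes, was at 88.9, 111 and 43.7 CPM in control and 122, 122 and 53.1 CPM in Sev. Replicate 3 was low in both groups, and the log2 fold change of 0.29 had an interval from -0.62 to 1.19 (adjusted p = 0.584). Without control 3, but with Sev 3 kept, the log2 fold change was -0.020. With the replicate number as a block, edgeR's test gave 0.29 (adjusted p = 0.0689), and the numbers were not shown to pair the libraries. No direction can thus be given for FOXM1. Its locus overlaps ITFG2 and RHNO1 on the other strand, at 19.0% and 13.3% of its level, and the part of their reads was not tested.

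Of 8 genes of the spindle checkpoint and anaphase promotion, only BUB1 (12.5%) was lower and none was higher, with a median log2 fold change of -0.11. Of all tested features, 21.5% were lower and 22.1% higher. BUB1, the kinase that recruits checkpoint proteins to kinetochores, was at 94.9, 111 and 107 CPM in control and 67.7, 59.1 and 61.3 CPM in Sev, 1.66-fold lower (log2 fold change -0.73, SE 0.09, adjusted p = 0.00083). Its paralog BUB1B, which encodes the checkpoint protein BUBR1, had a log2 fold change of -0.12 (95% interval -0.33 to 0.09). BUB3, the partner of both, was at 171, 193 and 189 CPM in control and 179, 165 and 198 CPM in Sev, with an interval from -0.24 to 0.18. MAD2L1, which restrains CDC20, and TTK, the checkpoint kinase MPS1, had log2 fold changes of 0.081 and -0.28 and were not called.

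CDC20, whose promoter stretch is printed above, was at 114, 138 and 147 CPM in control and 118, 119.6 and 105.7 CPM in Sev. The groups overlapped through control 1 (log2 fold change -0.22, 95% interval -0.47 to 0.04, adjusted p = 0.145), and the difference passed the limit in 6 of the 17 alternatives, among them leaving out control 1 (adjusted p = 0.0341). PTTG1, which encodes securin, the protein that holds separase in check, had means of 108 ± 6.67 CPM in control and 108 ± 11.8 CPM in Sev (SD, n = 3 each), with an interval from -0.23 to 0.23. UBE2C, the ubiquitin-conjugating enzyme of the APC/C, had a log2 fold change of -0.10 (adjusted p = 0.474; adjusted for exon length and GC, -0.29 with an adjusted p of 0.0474), and listed copies held 27.9% of the counts of the gene and its copies together.

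Of 4 genes of the centromere and of chromosome structure, 3 (75%) were lower, beside 21.5% of all tested features. TOP2A (ENSG00000131747, chr17:40388516-40417950, minus strand), the topoisomerase that untangles sister chromatids and the target of several anticancer drugs, was the most abundant member per length, with a control mean of 85.5 FPKM (counts scaled to transcript length and library total). It was at 596, 649 and 670.2 CPM in control and 272, 274 and 270.2 CPM in Sev. The 3 Sev libraries were nearly equal and far below the controls. The mean fell from 639 ± 38 to 272 ± 2.03 CPM (SD, n = 3 each), 2.35-fold lower (log2 fold change -1.23, 95% interval -1.41 to -1.05, adjusted p = 7.42e-05).

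CENPE, the kinetochore motor that aligns chromosomes, was at 66.5, 74.4 and 79.6 CPM in control and 32.7, 31.8 and 42 CPM in Sev, 2.07-fold lower (log2 fold change -1.05, SE 0.13, adjusted p = 0.00071). CENPF, a large kinetochore and nuclear matrix protein, fell less, from 438 ± 20.1 to 353 ± 6.98 CPM (SD, n = 3 each), 1.24-fold lower (adjusted p = 0.0116). Its call was lost when the counts were adjusted for a trend with exon length and GC (log2 fold change -0.15, adjusted p = 0.0998). CENPA, the histone H3 variant of centromeres, had a log2 fold change of -0.10 and was not called (adjusted p = 0.464). It overlaps SLC35F6 on the same strand, which was at 66.6 CPM in control and 71.5 CPM in Sev and was not called.

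Of 9 spindle motors and microtubule binders, 4 (44.4%) were lower and none was higher, beside 21.5% and 22.1% of all tested features. The other 5 had negative fold changes, but without control 2 the log2 fold changes of CKAP2, NUSAP1, KIF4A and KIF11 were 0.093, 0.059, 0.040 and 0.0076, so no direction can be given for these 4 genes. HMMR (ENSG00000072571, chr5:163460203-163491945, plus strand), a microtubule-binding protein of spindle poles that is also a hyaluronan receptor, had the greatest decrease of the 42 genes. It was at 29, 32.8 and 32.2 CPM in control and 9.96, 11.3 and 8.61 CPM in Sev. The mean fell from 31.4 ± 2.03 to 9.94 ± 1.33 CPM (SD, n = 3 each), 3.15-fold lower (log2 fold change -1.66, 95% interval -1.95 to -1.36, adjusted p = 0.000133). Its control level per length, 6.79 FPKM, was among the lower levels of the list.

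ASPM, a spindle pole protein, was at 267, 299 and 299 CPM in control and 165, 147 and 177 CPM in Sev, 1.77-fold lower (log2 fold change -0.82, SE 0.09, adjusted p = 0.000521). KIF2C, a kinesin that takes microtubule ends apart, fell from 141 ± 10.7 to 90.1 ± 10.7 CPM (SD, n = 3 each), 1.57-fold lower (adjusted p = 0.00259). DLGAP5, which stabilizes kinetochore fibers, fell from 75.3 ± 5.00 to 49.3 ± 5.87 CPM (SD, n = 3 each), 1.53-fold lower (adjusted p = 0.00334). These genes shared non-overlapping groups in all 3 cases.

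The other 5 spindle genes were not called. TPX2, which activates AURKA on the spindle, was at 204, 261 and 249 CPM in control and 217, 223 and 239 CPM in Sev, with a log2 fold change of -0.070 (95% interval -0.31 to 0.17, adjusted p = 0.614). KIF11, the motor that pushes spindle poles apart, went from 152 ± 15.5 to 148 ± 6.57 CPM (SD, n = 3 each), with an interval from -0.26 to 0.18. The interval was -0.24 to 0.21 for KIF4A, a chromosome-bound kinesin, and -0.32 to 0.22 for NUSAP1, a spindle protein. CKAP2, a microtubule stabilizer, had an interval from -0.96 to 0.46, and its control library 2, at 99.6 CPM, was far above the other controls.

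TPX2 served as a reference within each library, chosen after the values were seen. TOP2A counts were 2.92, 2.49 and 2.69 times those of TPX2 in control and 1.25, 1.23 and 1.13 times in Sev, a log2 difference of -1.17. HMMR counts were 0.142, 0.126 and 0.129 times those of TPX2 in control and 0.0458, 0.0504 and 0.0359 times in Sev, a log2 difference of -1.60. Since the genes were picked for their unlike changes, these ratios restate those changes within each library and no test is given.

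At the midzone and in cytokinesis, 2 of 6 genes (33.3%) were lower and none was higher, beside 21.5% and 22.1% of all tested features. In each of the 4 roles without a higher gene (checkpoint, centromere, spindle and midzone), the number higher was 0 at an unadjusted p under 0.05 in edgeR and 0 with DESeq2. KIF20A, the kinesin that carries the passenger complex to the midzone, was at 149, 165 and 169.2 CPM in control and 90.9, 102 and 95.2 CPM in Sev, 1.68-fold lower (log2 fold change -0.75, SE 0.08, adjusted p = 0.000506). It overlaps BRD8 on the other strand, which fell from 75.6 to 26.7 CPM, and whether the counting used strand is not stated. The part of BRD8 reads in the change of KIF20A was not tested. KIF20B, a midzone kinesin, was at 68.0, 88.3 and 78.4 CPM in control and 40.9, 38.8 and 47.8 CPM in Sev, 1.84-fold lower (log2 fold change -0.88, SE 0.12, adjusted p = 0.00126). Adjusted for exon length and GC, its log2 fold change was -0.52 (adjusted p = 0.00608).

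ANLN, the actin-binding scaffold of the contractile ring, was at 210, 280.0 and 252 CPM in control and 217, 217 and 225 CPM in Sev, with an interval of the log2 fold change from -0.42 to 0.08 (adjusted p = 0.238). It was past the limit in 4 of the 17 alternatives, among them leaving out control 1 (adjusted p = 0.0355). KIF23, a subunit of centralspindlin, and ECT2, which activates RhoA, had log2 fold changes of -0.024 and -0.11 and were not called. ECT2 was past the limit in 4 of the alternatives, scaling by library size only (adjusted p = 0.0311) and the FPKM settings, and its sign turned after the adjustment for exon length and GC (0.091). PRC1, which bundles midzone microtubules, was at 153, 155 and 167 CPM in control and 102, 166 and 199 CPM in Sev. Sev 1 stood below and Sev 3 above all controls. An unnamed gene on the same strand, ENSG00000284946, overlaps PRC1, and in Sev 1 it was higher, at 89.1 CPM, than in Sev 2 and Sev 3, at 38.6 and 43.1 CPM. The sum of both was 242 ± 4.30 CPM in control and 213 ± 26.5 CPM in Sev (SD, n = 3 each).

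The lower genes came from all 6 roles, and their levels, lengths and GC content were set beside those of the genes not called. The median control level was 17.9 FPKM (range 5.54 to 85.5) in lower genes and 22.1 FPKM (range 2.88 to 56.3) in genes not called. Both low and high members were thus among the lower genes. The median exon length was 3958 bases in lower genes and 4533 bases in genes not called, the median GC content of exons 40.5% and 45.3%, and the median length of the locus 31.7 and 21.2 kb. The ranges of both sets overlapped in each measure. After the same adjustment for exon length and GC, 18 members were lower and 2 were higher, but sizes changed. The log2 fold changes of CENPE, ASPM and CDK1 were then nearer 0, at -0.73, -0.56 and -0.66, so CENPE was under the study's threshold. Those of CDC25C, AURKB, KIF20A, KIF2C and NEK2 were further from 0. In all, 25 members overlap another annotated gene, but in only 8 did an overlapping gene reach 10% of the member's own level.

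The rest of the mitotic machinery was described with 6 lists, also chosen with earlier results of these data known. They hold 120 further genes, all of them tested. Of these, 42 (35.0%) were lower and 18 (15.0%) were higher, with a median log2 fold change of -0.098. Scaled by library size only, 51 were lower and 9 were higher. That scaling moved all features downward, from 6094 higher and 5920 lower to 4665 higher and 7502 lower of 27514, so the counts by library size for each list below are to be read against that shift. Of 20 further genes of the spindle, centrosome and cytokinesis, 16 were lower and none was higher, with a median of -0.58. At an unadjusted p under 0.05, and with DESeq2, the number higher was also 0. KIF14, a kinesin of cytokinesis, fell by 1.17 on the log2 scale (adjusted p = 0.000117). KIFC1, a minus-end motor that clusters centrosomes, fell by 0.90 (adjusted p = 0.000822), KIF18A, a kinesin that limits chromosome movement, fell by 0.91 (adjusted p = 0.00113), and CIT, the citron kinase of the midbody, fell by 0.63 (adjusted p = 0.00121).

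Of 33 further kinetochore and centromere genes, 12 (36.4%) were lower and 4 (12.1%) were higher, beside 21.5% and 22.1% of all tested features, with a median of -0.18. By library size only, 15 were lower and 2 were higher, and 2 were higher without Sev 1 or without Sev 3. CENPI, of the inner kinetochore, was at 50.2 ± 3.96 CPM in control and 13.8 ± 1.62 CPM in Sev (SD, n = 3 each), 3.64-fold lower (adjusted p = 7.42e-05). Its log2 fold change of -1.86 was further from 0 than that of any of the 42 members, and the difference between genes was not tested. KNTC1, which brings dynein to kinetochores, fell by 1.16 (adjusted p = 7.49e-05), NSL1, a subunit of the MIS12 complex, fell by 1.06 (adjusted p = 0.000243), and KNL1, the scaffold that binds BUB1, fell by 0.73 (adjusted p = 0.000831).

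Of 22 genes of condensin, cohesin and the passenger complex, 6 (27.3%) were lower and 6 (27.3%) were higher, near the shares of all tested features, with a median of -0.019. By library size only, 8 were lower and 2 were higher, and 3 were higher without control 1, without control 3 or without Sev 1. SGO2, which protects cohesin, fell by 1.13 (adjusted p = 0.000399), NCAPD2, a condensin subunit, fell by 0.84 (adjusted p = 0.000429), and ESPL1, the protease separase, fell by 0.81 (adjusted p = 0.000583). STAG1, a cohesin subunit, rose by 0.71 (adjusted p = 0.000574). Of 17 subunits and cofactors of the APC/C, 3 (17.6%) were lower and 1 (5.88%) was higher, beside 21.5% and 22.1% of all tested features, with a median of 0.015, and CDC26 fell by 0.77 (adjusted p = 0.00564). By library size only, 3 of these were lower and 0 were higher. The higher call, that of ANAPC15, was also lost without control 1, control 3, Sev 1 or Sev 2, and in the FPKM settings. Without Sev 2, UBE2S was called higher in its place (adjusted p = 0.0247 in edgeR's test).

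Of 16 entry regulators, 3 (18.8%) were lower and 4 (25%) were higher, near the 21.5% and 22.1% of all tested features, with a median of 0.044. By library size only, 5 were lower and 4 were higher. CDC25A, the phosphatase of the family that also acts at G1/S, went from 30.3 ± 4.02 CPM in control to 55.5 ± 9.32 CPM in Sev (SD, n = 3 each), 1.83-fold higher (adjusted p = 0.00296). The phosphatases of this family were thus higher (CDC25A), lower (CDC25C) and not called (CDC25B). ATR, the kinase of the replication checkpoint, fell by 0.78 (adjusted p = 0.00187), and CHEK2, the kinase of the damage checkpoint, fell by 1.08 from a low level of 7.90 ± 1.41 CPM (SD, n = 3; adjusted p = 0.00356). Of 12 genes of MuvB, B-MYB and DREAM, the complexes that turn these promoters on and off, 2 (16.7%) were lower and 3 (25%) were higher, near the shares of all tested features, with a median of 0.14. By library size only, 4 were lower and 1 was higher. RBL2, the pocket protein p130, fell by 0.92 (adjusted p = 0.000428), and E2F5, a repressor E2F, fell by 1.02 (adjusted p = 0.0137). The 3 higher genes were MYBL2, which encodes B-MYB, E2F4 and TFDP2. Their calls were kept in 16, 6 and 13 of the 17 alternatives, and the log2 fold change of MYBL2 ran from 0.40 to 0.64 there.

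A list of 34 genes of G1/S and DNA replication, also chosen with earlier results of these data known, was set beside the mitotic genes. Of these, 16 (47.1%) were higher and 1 (2.94%) was lower and 17 were not called, with a median log2 fold change of 0.37 and 28 positive values. Scaled by library size only, 10 were higher and 3 were lower, and 10 were higher and 2 lower without control 1. Without Sev 3, 2 were lower. In the same libraries the 42 mitosis and G2/M genes had 4.76% higher and 35.7% lower, beside the 22.1% and 21.5% of all tested features. These counts set the lists side by side, and the difference between them was not tested.

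**Figure D5:**
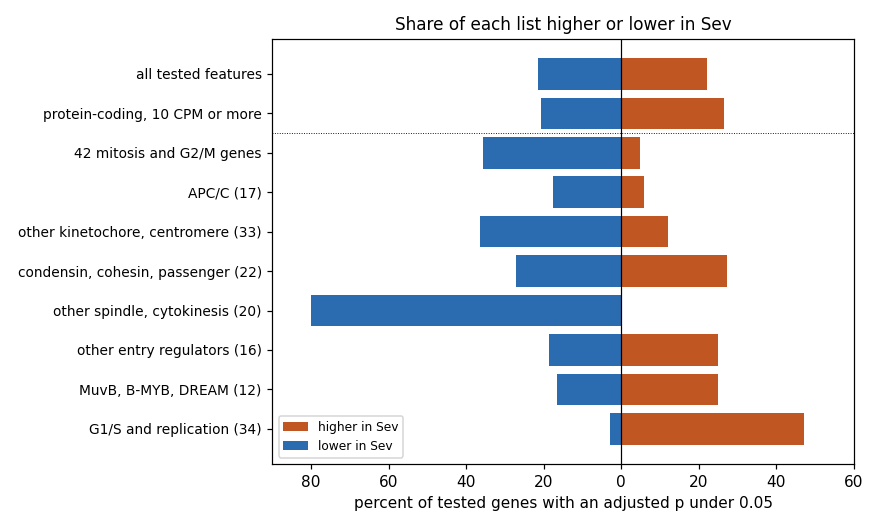
Percent of tested genes with an adjusted p under 0.05 that were higher (orange, to the right) or lower (blue, to the left) in Sev, for all tested features, abundant protein-coding features, the 42 genes and further lists with their sizes in parentheses. Lower calls reach 80% among the 20 further spindle and cytokinesis genes and 35.7% among the 42 genes, and higher calls reach 47.1% among the 34 G1/S and replication genes. All the gene lists were chosen with earlier results of these data known.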

How the data were processed

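Total RNA of 3 control and 3 Sev libraries of U251 cells was sequenced with strand-specific adapters. The authors deposited raw counts per gene and FPKM values (counts scaled to transcript length and library total) for the same features. The submitters' processing notes name bcl2fastq 2.19, featureCounts and the build hg18, with no role given, and whether strand was used in counting is not given in the sources used here. Symbols were matched by Ensembl identifier, and positions came from GENCODE 29 (GRCh38).

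Libraries were grouped by their titles. Counts were tested with edgeR 4.0.16 (R 4.3.3, filterByExpr, TMM, glmQLFit, glmQLFTest) over the whole table, with Benjamini-Hochberg adjustment over 27514 features, since the methods name only a threshold (absolute log2 fold change over 1, p under 0.05). Called means an adjusted p under 0.05. CPM values are TMM-normalized, and FPKM values were used for levels between genes. The script was tested on simulated data with 200 changed genes. In the data themselves 6094 features were called higher and 5920 lower, so the simulation did not test scaling with that many changes. Sums, ratios and motif matches were computed in Python 3.11.15. Alternatives were DESeq2 1.42.0, other scalings and filters, each library left out, a replicate block and limma 3.58.1 on log2(FPKM + 1) or log2(FPKM + 0.1), both for features reaching 0.5 FPKM in 3 or more libraries, and the first also unfiltered. TMM on protein-coding genes and an adjustment for exon length and GC were added after seeing the data.

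Members and gene lists were chosen with earlier results of these data known. Genes were named with values if called, if highest in mean FPKM in their role list, or if among CDK1, CCNB1, PLK1, CDC20, AURKB, TOP2A, FOXM1 and WEE1, and in the further lists if called with an absolute log2 fold change over 0.58, at most 4 a list. Other members, AURKA among them, were described after their values were seen. So were ANAPC15, UBE2S, MYBL2, E2F4 and TFDP2 of the further lists. Same-numbered libraries of the groups did not deviate together (correlations -0.0072, 0.0035 and 0.027), so the numbers were not taken as pairs. Replicate pairs differed by more than sampling noise for 51.7% to 69.8% of 13227 features with a mean of at least 200 counts, so no library was counted as a copy.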

Additional observations from a re-analysis of the deposited data

How the results depend on the processing

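Of the 15 lower members, 14 kept their call in all 17 alternatives, CENPF being the exception, and of the 2 higher members WEE1 did. Counts of lower members stayed between 15 and 20. Scaling by library size only put the median of all tested features at -0.15 in place of -0.0056, and limma on FPKM put it at -0.11 with a pseudocount of 1, -0.17 with 0.1 and -0.0089 without a filter; the median over the members was then -0.33, -0.32, -0.33 and -0.32. In the 3 FPKM settings 1 member was higher, and 0 passed the study's threshold upward. Downward, 7 passed it with log2(FPKM + 0.1). Further mitosis genes called higher numbered 9 by library size, 9 with log2(FPKM + 1), 8 with log2(FPKM + 0.1) and 7 without a filter, against 18. Leaving out a library gave 1 to 2 higher members (1 without control 1 or without Sev 1), 2 to 5 members past the study's threshold downward (2 without control 3 or without Sev 2) and a median of -0.29 to -0.13. The log2 fold change of FOXM1 ran from -0.020 (without control 3) to 0.59. The causes were not tested. With the replicate number as a block, 2 members were higher and 15 lower with a median of -0.19, and no member's call changed, while in the further lists it left 13 of 120 genes higher and 37 lower, among them 3 condensin, cohesin and passenger genes higher and 4 lower in place of 6 each, and 0 higher APC/C genes in place of 1; the numbers were not shown to pair the libraries. Replicates differed beyond sampling noise for 51.7% to 69.8% of abundant features. The intervals rest on 3 libraries a group, with the spread of each gene moderated by edgeR toward that of other features.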
